A study of Mus musculus with 7 samples.

Results

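The smooth muscle actin and contractile genes Acta2, Actc1, Tagln, Cnn1, Cnn2, Tpm1, Tpm2, Myl9, Mylk and Vcl were followed in mouse embryonic fibroblasts that lack or are depleted of tenascin-C (Tnc), a matrix glycoprotein that modulates cell adhesion. The 10 genes were chosen by name as parts of the contractile apparatus of myofibroblasts, out of 19937 genes with a single-symbol probe set on the array. Each has 1 such probe set, and all 10 passed the filter on low signal that left 16801 genes for testing. The study compared 3 groups of spontaneously immortalised fibroblast clones, grown for 2 days in medium with serum. There were 2 clones from Tnc knockout mice (knockout), 2 clones of wild-type origin that stably carry a short hairpin RNA against Tnc (knockdown) and 3 clones from wild-type mice (wild type). Each clone was hybridised to 1 array, no group with a control hairpin was analysed here, and how many mice the clones of a group represent is not in the labels, so p-values measure the spread between these arrays. The labels give neither the deleted part of Tnc nor the sequence of the hairpin.

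A fibroblast that acquires contractile bundles becomes a myofibroblast. Its stress fibres combine actin filaments, which tropomyosins coat and calponins and transgelin bind, with myosin II, whose light chain is phosphorylated to start contraction. Vinculin couples the fibres to integrin adhesions, and many of these genes are transcribed through serum response factor (SRF), which binds the CArG box and is activated by myocardin-related coactivators when monomeric actin is used up.

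The fibroblast identity of the cultures was checked first. Of 12 fibroblast markers, 10 to 12 lay above the array median on every array, among them Col1a1, Col1a2, Thy1 and Vim. Lum did so on only 5 of the 7 arrays and Fap on 1. Only 2 of 10 epithelial, endothelial and leukocyte markers did so (Krt8 and Cd68), and Epcam, Cdh1, Pecam1 and Ptprc lay below it on all 7 arrays. The log2 signal of Tnc was 8.05 and 8.51 in the knockout clones, 7.34 and 6.52 in the knockdown clones and 10.88, 11.42 and 11.38 in the wild-type clones. By limma, Tnc fell in knockout (log2 difference -2.95 ± 0.295 SE, adjusted p = 0.042) and in knockdown (-4.30 ± 0.295 SE, adjusted p = 0.0339). Leaving out any 1 array ended both calls, though the differences stayed between -3.17 and -2.72 and between -4.70 and -3.89 over 16 alternative analyses. Knockout array 2 (3.77) and knockdown array 2 (5.46) were low in the Y-linked gene Eif2s3y, which ranged from 7.51 to 8.78 elsewhere, so results were also computed without these 2 arrays. All 7 array medians, each taken over all 34760 probe sets, lay between 5.38 and 5.49. Of 19937 genes, 11968 lay above the array's median on 2 arrays or more.

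The CArG box, read on both strands, was found in the promoter window of 4 of the 9 members with a RefSeq promoter (GRCm38.p6, 250 bases before to 50 after the annotated start), against 1.63% of 32851 mouse promoter windows of the same 300 bases. No promoter window was available for Tagln. Only exact matches inside the window were counted, that is CC, then only A or T, then GG. Variant boxes and boxes outside the window were not searched. The matches are shown because the genes that carry them, the actin gene Actc1, the calponin gene Cnn2, the light chain gene Myl9 and the vinculin gene Vcl, are set side by side with the others below. Each line runs 5′ to 3′ on the gene's strand, with the CArG box in capitals.
Actc1, chr2:114052888-114052947, minus strand: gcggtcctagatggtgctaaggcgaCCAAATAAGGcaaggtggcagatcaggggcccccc
Cnn2, chr10:79988519-79988578, plus strand: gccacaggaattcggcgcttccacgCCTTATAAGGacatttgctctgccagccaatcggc
Myl9, chr2:156775278-156775337, plus strand: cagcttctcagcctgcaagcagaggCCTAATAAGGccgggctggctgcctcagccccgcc
Vcl, chr14:20929148-20929205, plus strand: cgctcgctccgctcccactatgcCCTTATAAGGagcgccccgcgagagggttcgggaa
Counted from the annotated start, the box begins at position -47 in Actc1, -56 in Cnn2, -161 in Myl9 and -227 in Vcl. The word CATTCC, bound by TEAD factors, was found on either strand in 4 of the 9 windows (Acta2, Tpm1, Mylk and Vcl), against 14.7% of all windows. It is shown in capitals, as its reverse complement, for Acta2, the gene that defines the myofibroblast and has no CArG match in this window.
Acta2, chr19:34255489-34255544, minus strand: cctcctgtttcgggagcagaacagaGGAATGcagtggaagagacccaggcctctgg
The last 100 bases before the start of Tpm2, the member that passed the test below, held neither word.
Tpm2, chr4:43523555-43523654, minus strand: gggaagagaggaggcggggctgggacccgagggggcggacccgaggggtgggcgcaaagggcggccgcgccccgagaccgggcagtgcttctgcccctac

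Most members stood highest in knockout and lowest in knockdown. This order of group means held for 7 of the 10 genes: Acta2, Tagln, Cnn1, Tpm1, Tpm2, Myl9 and Vcl. The share of all tested genes with this order was not computed. Actc1 and Cnn2 were highest in wild type and lowest in knockdown, and Mylk was highest in knockdown and lowest in wild type. The median log2 difference over the 10 genes was 0.44 in knockout minus wild type, against -0.028 over all tested genes. In knockdown minus wild type it was -0.28, against 0.0284 over all tested genes, and in knockout minus knockdown 0.62, against -0.0503. The members were picked when this opposition was already known, so these medians describe the genes and are not independent evidence of it. The comparisons of knockout and of knockdown with wild type also share the 3 wild-type arrays, while the difference between knockout and knockdown does not depend on the wild-type means.

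**Figure D1:**
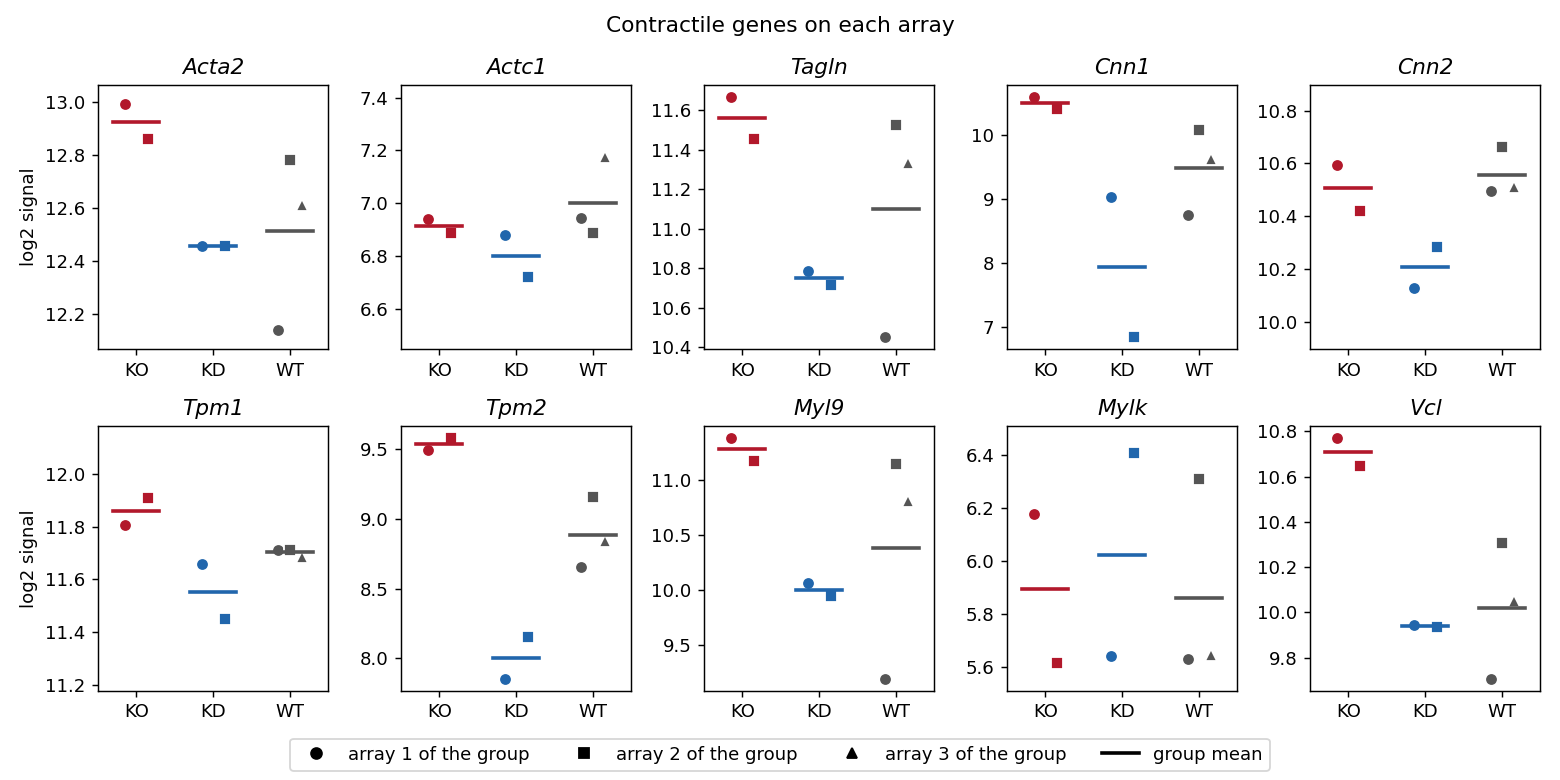
Log2 signal of each contractile gene (vertical axes, which differ between panels) on the knockout (KO), knockdown (KD) and wild-type (WT) arrays. Points are single arrays, with the symbol giving the array's number within its group, and bars are group means. Both knockout arrays lie above both knockdown arrays for every gene but Mylk, and wild-type array 1 is the lowest array of all 7 for Acta2, Tagln, Myl9 and Vcl.

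Acta2 (gene identifier 11475, chromosome 19, probe set 10467124) encodes smooth muscle alpha-actin, whose incorporation into stress fibres defines the myofibroblast. Its log2 signal was 12.99 and 12.86 on the knockout arrays, 12.46 on both knockdown arrays, and 12.14, 12.78 and 12.61 on the wild-type arrays. Both knockout arrays lay above all others, while the knockdown arrays fell inside the wild-type range. The knockout mean of 12.93 ± 0.0934 (SD, n = 2) was 1.33-fold above the wild-type mean of 12.51 ± 0.334 (SD, n = 3), a log2 difference of 0.41 ± 0.189 SE that did not pass limma's test (adjusted p = 0.437). The difference between knockdown and wild type was -0.055 (95% interval -0.52 to 0.41, adjusted p = 0.927). Without wild-type array 1 the differences from wild type were 0.23 in knockout and -0.24 in knockdown. Knockout exceeded knockdown by 0.47 (95% interval -0.036 to 0.98, adjusted p = 0.306).

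Actc1 (gene identifier 11464, chromosome 2, probe set 10485982), the cardiac alpha-actin gene that is also made in embryonic and cultured mesenchymal cells, had log2 signals of 6.94 and 6.89 on knockout arrays, 6.88 and 6.72 on knockdown arrays, and 6.94, 6.89 and 7.17 on wild-type arrays. Knockout overlapped wild type and differed from it by -0.088 (95% interval -0.36 to 0.18). Knockdown lay 0.20 lower on the log2 scale, with its higher array only just under the lowest wild-type array. That difference was -0.12 without knockdown array 2 and -0.11 without wild-type array 3. Knockout minus knockdown was 0.11, and ranged from 0.033 to 0.19 with 1 knockdown array left out. Actin paralogues are close in sequence, and whether probes of one also captured RNA of another was not tested.

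Tagln (gene identifier 21345, chromosome 9, probe set 10593123) encodes transgelin (SM22), an actin-bundling protein and early marker of smooth muscle differentiation. It stood at 11.67 and 11.46 on knockout arrays, 10.78 and 10.71 on knockdown arrays, and 10.45, 11.53 and 11.33 on wild-type arrays. The 2 deficient groups were well apart, but the wild-type arrays spanned more than the gap between them: array 1 lay below both knockdown arrays and array 2 between the 2 knockout arrays. Knockout minus knockdown was 0.81 ± 0.343 SE (adjusted p = 0.291), knockout minus wild type 0.46 (adjusted p = 0.569) and knockdown minus wild type -0.35 (adjusted p = 0.658). Without wild-type array 1 the differences from wild type were 0.13 in knockout and -0.68 in knockdown, and without wild-type array 2 the knockdown difference was -0.14.

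Cnn1 (gene identifier 12797, chromosome 9, probe set 10583809), the smooth muscle calponin gene, showed the widest span of the 10 genes. Its signal was 10.59 and 10.40 on knockout arrays, 9.02 and 6.84 on knockdown arrays, and 8.75, 10.07 and 9.61 on wild-type arrays. Both knockout arrays were above every wild-type array, whereas knockdown array 1 lay within the wild-type range and knockdown array 2 far below it. The knockout mean was 10.49 ± 0.135 (SD, n = 2), the knockdown mean 7.93 ± 1.54 (SD, n = 2) and the wild-type mean 9.48 ± 0.671 (SD, n = 3). Knockout was 5.92-fold above knockdown (log2 2.56 ± 0.741 SE), which did not pass by limma (adjusted p = 0.176). Without knockdown array 2 this difference was 1.47, and knockdown minus wild type was -0.46, against -1.55 with all arrays and -2.64 without knockdown array 1. Knockout minus wild type was 1.02, and 0.65 without wild-type array 1.

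Cnn2 (gene identifier 12798, chromosome 10, probe set 10364593) encodes the calponin found in fibroblasts and other non-muscle cells, and it did not follow Cnn1 in knockout. It stood at 10.59 and 10.42 on knockout arrays, 10.13 and 10.28 on knockdown arrays, and 10.50, 10.66 and 10.51 on wild-type arrays. Knockout array 1 lay inside the wild-type range and knockout array 2 just below it, while both knockdown arrays lay below all others. Knockdown minus wild type was -0.35 ± 0.0994 SE (95% interval -0.59 to -0.11, adjusted p = 0.223). Knockout minus wild type was -0.051 (95% interval -0.29 to 0.19, adjusted p = 0.854).

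Tropomyosins wind along the actin filament and govern the access of myosin and calponin to it. Tpm2 (gene identifier 22004, chromosome 4, probe set 10512499), the beta-tropomyosin gene, was at 9.49 and 9.58 on knockout arrays, 7.86 and 8.16 on knockdown arrays, and 8.65, 9.16 and 8.84 on wild-type arrays. No 2 groups overlapped: both knockout arrays lay above, and both knockdown arrays below, all wild-type arrays. Tpm2 was 2.89-fold higher in knockout than in knockdown (log2 1.53 ± 0.185 SE, 95% interval 1.08 to 1.98, adjusted p = 0.0488 by limma), 1 of 63 genes past the threshold in that comparison and 53rd of 16801 by p.

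The Tpm2 difference lay between 1.38 and 1.68 in all 16 alternative analyses, but its adjusted p, between 0.0326 and 0.304, stayed under 0.05 in only 4 of them, and leaving out any single array ended the call. Against wild type, Tpm2 was 1.57-fold higher in knockout (0.65 ± 0.169 SE, adjusted p = 0.21) and 1.84-fold lower in knockdown (-0.88 ± 0.169 SE, adjusted p = 0.162). Tnc lies on the same chromosome, with 186 annotated protein-coding genes between it and Tpm2.

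Tpm1 (gene identifier 22003, chromosome 9, probe set 10594661), the alpha-tropomyosin gene, moved by much less. Its signal was 11.81 and 11.91 on knockout arrays, 11.66 and 11.45 on knockdown arrays, and 11.71, 11.71 and 11.68 on wild-type arrays. The groups again did not overlap. The wild-type arrays were within 0.0283 of each other, and wild-type arrays 1 and 2 held an identical value (11.7122). Knockout minus knockdown was 0.30 ± 0.096 SE (1.23-fold, adjusted p = 0.197), with 0.15 (adjusted p = 0.513) in knockout and -0.15 (adjusted p = 0.505) in knockdown against wild type. Without knockdown array 2 it was 0.20, and the knockdown difference from wild type was -0.044, against -0.25 without knockdown array 1.

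Myl9 (gene identifier 98932, chromosome 2, probe set 10477920) encodes the myosin II regulatory light chain whose phosphorylation switches the motor on. It was at 11.38 and 11.17 on knockout arrays, 10.07 and 9.94 on knockdown arrays, and 9.20, 11.14 and 10.80 on wild-type arrays. Knockout stood 1.27 above knockdown (2.41-fold, 95% interval -0.2 to 2.74, adjusted p = 0.334), and the wild-type arrays were 1.94 apart among themselves. Knockout array 2 was just above the highest wild-type array, and both knockdown arrays were above wild-type array 1. Differences from wild type were 0.89 ± 0.551 SE in knockout (adjusted p = 0.539) and -0.38 ± 0.551 SE in knockdown (adjusted p = 0.805). Without wild-type array 1 they were 0.30 in knockout and -0.97 in knockdown. The knockdown difference was 0.004 without wild-type array 2 and -0.16 without wild-type array 3.

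Mylk (gene identifier 107589, chromosome 16, probe set 10435345), the gene of the kinase that phosphorylates this light chain, was the exception among the 10. It had 6.18 and 5.61 on knockout arrays, 5.64 and 6.41 on knockdown arrays, and 5.63, 6.31 and 5.64 on wild-type arrays. All 3 groups overlapped, since each held both low and high arrays. Knockout minus knockdown was -0.13, with a 95% interval from -1.01 to 0.75 that is wide enough to hold differences in either direction (adjusted p = 0.865).

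Vcl (gene identifier 22330, chromosome 14, probe set 10413059) encodes vinculin, which ties actin to talin at adhesions. Its signal was 10.77 and 10.65 on knockout arrays, 9.95 and 9.93 on knockdown arrays, and 9.71, 10.31 and 10.05 on wild-type arrays. Both knockout arrays exceeded all others, and the knockdown arrays sat inside the wild-type range. Knockout was 1.61-fold above wild type (0.69 ± 0.172 SE, adjusted p = 0.202) and 1.70-fold above knockdown (0.77 ± 0.189 SE, adjusted p = 0.143). Knockdown differed from wild type by -0.081 (95% interval -0.5 to 0.34, adjusted p = 0.876), and by -0.24 without wild-type array 1.

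**Figure D2:**
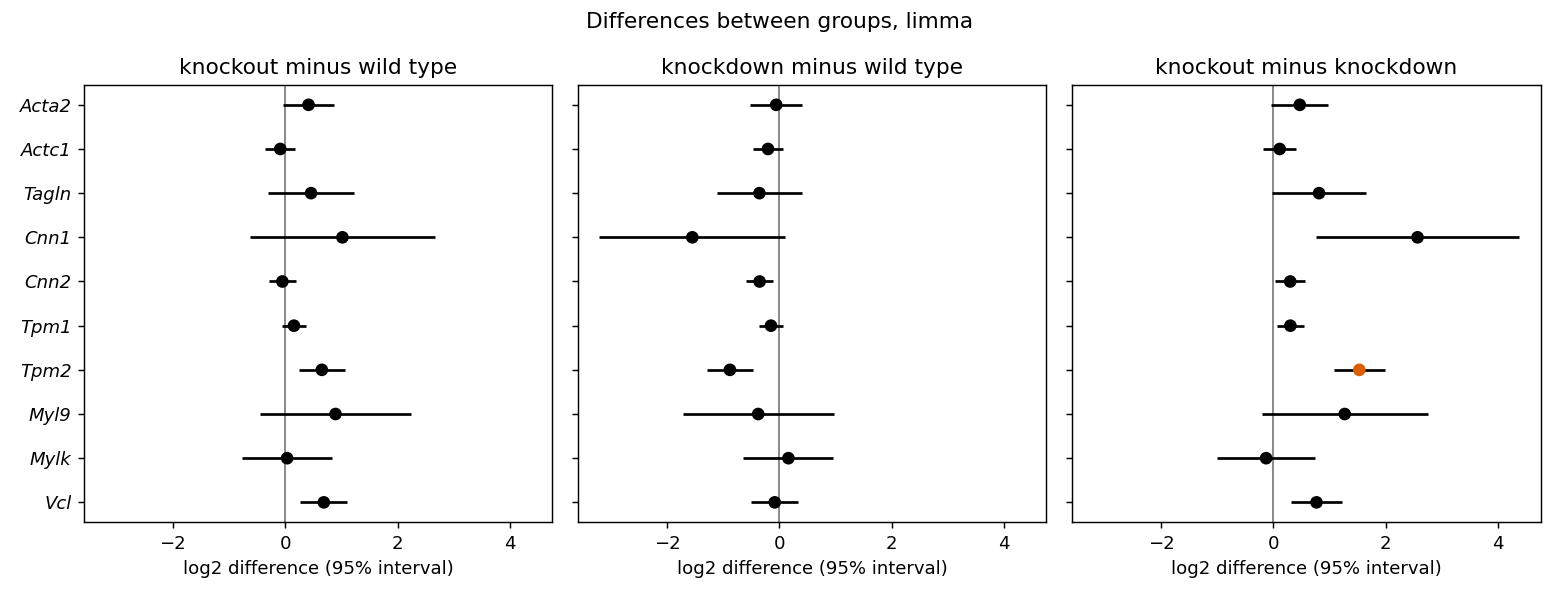
Log2 difference of each contractile gene in limma for knockout minus wild type, knockdown minus wild type and knockout minus knockdown (horizontal axis), with 95% intervals. The coloured point marks an adjusted p under 0.05, which is reached by Tpm2 in knockout minus knockdown (1.53) and by no other member in any comparison.

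Counted over the set, 0 of 10 members passed the adjusted threshold of 0.05 in knockout against wild type, where 0.167% of all tested genes did (28 genes). At an unadjusted p under 0.05, 2 members (Tpm2 and Vcl) were higher, against 7.33% of all genes, and 0 were lower. Both knockout arrays lay above all wild-type arrays for 6 members (Acta2, Cnn1, Tpm1, Tpm2, Myl9 and Vcl), a pattern found in 13.2% of all genes, and below them for 0. In sign alone, 8 were higher and 2 lower, where 42.6% of all genes were higher.

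In knockdown against wild type 0 of 10 members passed, where 0.0179% of all genes did (3 genes, 2371 at an unadjusted p under 0.05). Unadjusted, 2 members (Cnn2 and Tpm2) were lower, against 6.99% of all genes, and 0 were higher. Both knockdown arrays lay below all wild-type arrays for 4 members (Actc1, Cnn2, Tpm1 and Tpm2), against 12.9% of all genes. In sign, 9 members were lower, where 42.7% of all genes were lower.

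In knockout against knockdown, 1 of 10 members (Tpm2) passed, where 0.375% of all genes did. Unadjusted, 5 members were higher in knockout (Cnn1, Cnn2, Tpm1, Tpm2 and Vcl), against 9.04% of all genes. The arrays of both groups did not overlap, with knockout higher, for 9 members, against 17.8% of all genes. In sign, 9 of 10 were higher in knockout, where 40.0% of all genes were.

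The knockout minus knockdown differences of the carriers of a CArG match were 1.27 for Myl9, 0.77 for Vcl, 0.30 for Cnn2 and 0.11 for Actc1. Among members without a match in the window they were 2.56 for Cnn1, 1.53 for Tpm2, 0.47 for Acta2, 0.30 for Tpm1 and -0.13 for Mylk. Cnn1 and Tpm2 thus lay above all 4 carriers and Mylk below them. Members without an exact match in the window can still hold a variant box or one elsewhere. Members with and without a match were not tested against each other. Tagln, with no promoter entry, stood at 0.81.

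Wild-type array 1 was low in contractile genes. It was the lowest of the 3 wild-type arrays for 8 of 10 members, against 43.0% of all genes, and wild-type array 2 was the highest for 8 of 10, against 26.6% of all genes. On array 1, 5 members lay below both knockdown arrays: Acta2, Tagln, Myl9, Mylk and Vcl. The share of all genes that did so was not computed, so how unusual this count is cannot be read from it. Relative to each gene's wild-type mean, the median member stood at 0.52 and 0.35 in the knockout clones and at -0.27 and -0.28 in the knockdown clones, while wild-type arrays 1, 2 and 3 had -0.27, 0.28 and 0.065. All-gene medians on the same scale lay between -0.0334 and 0.0243. Wild-type array 2 was thus nearer to the knockout arrays, and array 1 level with the knockdown arrays.

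The differences from wild type varied with the wild-type arrays used. Without wild-type array 1 the median over members was 0.19 in knockout minus wild type and -0.31 in knockdown minus wild type. Without wild-type array 2 these medians were 0.61 and -0.14, and 4 of 10 members were higher in knockdown, among them Acta2 at 0.081, Vcl at 0.062 and Myl9 at 0.004. Between knockout and knockdown the median stayed between 0.56 and 0.68 whichever single array was left out, with 9 or 10 of 10 members higher in knockout. It was 0.68, with 10 of 10 higher, without both deficient arrays numbered 2.

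**Figure D3:**
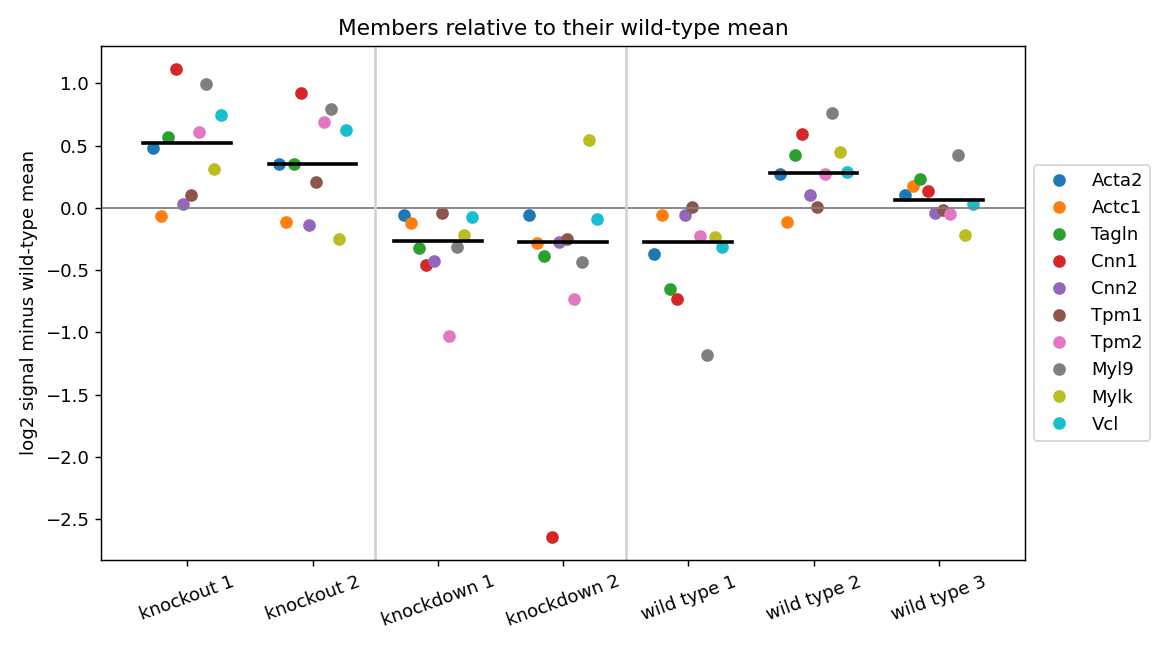
Log2 signal of each contractile gene minus its wild-type mean (vertical axis) on each of the 7 arrays, with 1 coloured point per gene and the median of the 10 genes as a black bar. The bars stand at 0.52 and 0.35 for knockout, -0.27 and -0.28 for knockdown, and -0.27, 0.28 and 0.065 for wild type. The low point on knockdown array 2 is Cnn1.

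In 5 lists of related genes the median knockout minus knockdown difference was above 0 and smaller than the 0.62 of the members, with 0 genes called in 4 lists and 1 in the other. Single genes went the other way, among them Cnn3 (-0.0391), Tagln2 (-0.0543), Ppp1cb (-0.16), Pxn (-0.15) and Egr1 (-0.61). For the list counts that follow, 40.0% of all tested genes were higher in knockout than in knockdown. Against wild type, 42.6% were higher in knockout and 42.7% lower in knockdown. At an unadjusted p under 0.05 by limma these shares were 9.04%, 7.33% and 6.99%, and 0.375% were called between knockout and knockdown. Of 8 tested genes for other actins, tropomyosins, calponins and transgelins, 6 were higher and 2 lower in knockout than in knockdown, with a median of 0.23. None passed by limma (0 called in any of the 3 comparisons, with 3 at an unadjusted p under 0.05 in this one). Acta1, the skeletal alpha-actin gene, had 8.08 and 7.53 on knockout arrays, 6.73 and 6.55 on knockdown arrays, and 6.87, 6.95 and 6.93 on wild-type arrays. The groups did not overlap, and its knockout minus knockdown difference was 1.16 ± 0.18 SE (adjusted p = 0.0706). The caldesmon gene Cald1 differed by 0.71 (adjusted p = 0.213) and Tpm4 by 0.37 (adjusted p = 0.214). Actg2, the enteric smooth muscle actin gene, stood at 10.83 and 8.33 on knockout arrays and 7.81 and 7.06 on knockdown arrays. On wild-type arrays it was at 7.92, 9.37 and 9.46. Its knockout minus knockdown difference was 2.15 (adjusted p = 0.288). The 2 knockout clones were further apart than the knockout and wild-type means. Against wild type, 5 of the 8 were higher in knockout (median 0.0928) and 7 lower in knockdown (median -0.21).

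Genes of myosin II and its phosphorylation control were higher in knockout than in knockdown for 13 of 17 (median 0.19, 0 called, 4 at an unadjusted p under 0.05). Myh9, the non-muscle myosin heavy chain gene, was at 11.77 and 11.67 on knockout arrays, 10.85 and 10.94 on knockdown arrays, and 10.95, 11.21 and 11.14 on wild-type arrays. It was higher in knockout than in knockdown by 0.82 ± 0.11 SE (adjusted p = 0.0543) and than in wild type by 0.62 (adjusted p = 0.0937). The myosin phosphatase targeting gene Ppp1r12a differed by 0.60 between knockout and knockdown (adjusted p = 0.117), and the light chain gene Myl12a by 0.33 (adjusted p = 0.181). In knockout against wild type, 10 were higher (median 0.0419) with 0 called and 4 higher at an unadjusted p under 0.05. These were led by Myh9, the phosphatase inhibitor gene Ppp1r14a (0.89, adjusted p = 0.252) and Myl12b (0.79, adjusted p = 0.32). Ppp1r14a was at 7.15 and 6.20 on knockout arrays, 5.90 on both knockdown arrays, and 5.73, 5.90 and 5.73 on wild-type arrays, so its difference rests largely on knockout array 1. In knockdown, 10 of 17 were lower (median -0.0433), with 0 called and 2 lower at an unadjusted p under 0.05, Myh10 at -0.60 and Ppp1r12a at -0.33.

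Of 15 focal adhesion and stress fibre crosslinker genes, 13 were higher in knockout than in knockdown (median 0.33), and 1 passed. Tes, which encodes the LIM-domain adhesion protein testin, rose in knockout relative to knockdown by 0.80 ± 0.0818 SE (adjusted p = 0.0381). Over the 16 alternatives its difference was 0.71 to 0.88, and the call held in 5 of them and in 0 of those that leave out a single array (adjusted p from 0.0191 to 0.304). Its signal was 10.06 and 9.98 on knockout arrays, 9.27 and 9.16 on knockdown arrays, and 9.93, 9.93 and 10.00 on wild-type arrays, so the knockdown arrays stood apart and the knockout arrays lay near wild type. Tln1, the talin partner of vinculin, was 0.33 higher in knockout than in knockdown (adjusted p = 0.178) and Actn1, an actin crosslinker, 0.63 higher (adjusted p = 0.19). Against wild type, 12 of 15 were lower in knockdown (median -0.23), with 0 called and 3 lower at an unadjusted p under 0.05: Tes at -0.73, Tln1 at -0.45 and Lpp at -0.46. In knockout 9 of 15 were higher (median 0.0662), with 0 called and 2 higher at an unadjusted p under 0.05, Tln2 at 0.78 and Pdlim7 at 0.62.

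SRF itself, its coactivators and TEAD partners were higher in knockout than in knockdown for 12 of 12 tested genes, with a median of 0.26 and 0 called (4 at an unadjusted p under 0.05). Mrtfa, the actin-sensing SRF coactivator, was at 7.97 and 8.36 on knockout arrays, 7.37 and 7.73 on knockdown arrays, and 6.97, 7.37 and 7.41 on wild-type arrays. It stood 0.92 ± 0.197 SE above wild type in knockout (adjusted p = 0.152) and 0.62 above knockdown (adjusted p = 0.232). Yap1, a TEAD coactivator, was 0.41 higher in knockout than in knockdown (adjusted p = 0.141) and stood at -0.28 in knockdown minus wild type (adjusted p = 0.266). Myocd, the coactivator particular to cardiac and smooth muscle, lay below the median of every array.

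Of 12 SRF targets outside the contractile apparatus, 8 were higher and 4 lower in knockout than in knockdown, with 0 called. Their median of 0.14 was the smallest of the 5 lists, and at an unadjusted p under 0.05, 4 were higher and 1 was lower. In knockdown against wild type 9 of 12 were lower (median -0.26, 0 called, 4 lower at an unadjusted p under 0.05). Ankrd1, a stress-responsive ankyrin repeat gene, had 9.85 and 9.03 on knockout arrays, 7.51 and 7.40 on knockdown arrays, and 9.48, 9.73 and 10.12 on wild-type arrays. Both knockdown arrays lay far below the rest. Knockdown minus wild type was -2.32 ± 0.283 SE (adjusted p = 0.1), and knockout minus knockdown was 1.99 (adjusted p = 0.0706). The immediate early gene Ier2 stood at -0.62 and the matricellular gene Ccn1 at -0.87 in knockdown minus wild type (adjusted p = 0.129 and 0.203). In knockout minus wild type 7 of 12 were higher, with a median of 0.0318 and 0 called. The immediate early gene Egr1 was lowest there, at -0.69 (adjusted p = 0.183).

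**Figure D4:**
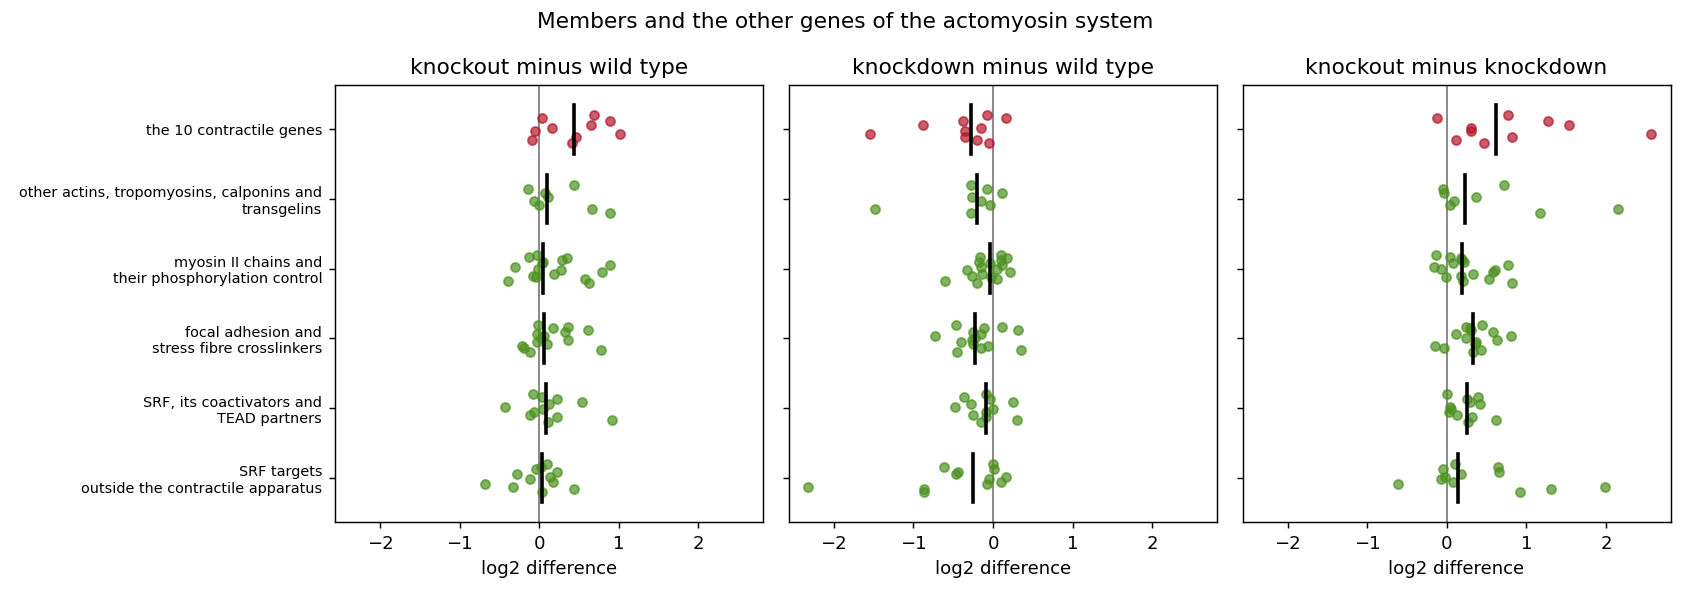
Log2 differences in knockout minus wild type, knockdown minus wild type and knockout minus knockdown (horizontal axes), with 1 point per tested gene, for the 10 contractile genes and 5 lists of related genes. Black bars are medians, which for the contractile genes are 0.44, -0.28 and 0.62, and in knockout minus knockdown lie between 0.14 and 0.33 for the other lists.

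Markers of neighbouring cell types were measured beside these genes. Many genes of any kind lie above the array median (11968 of 19937 on 2 arrays or more). Counts of markers above it were not tested against that share. The list of mature smooth muscle markers, which shares Cnn1 with the members, had 6 to 7 of 10 genes above the array median, and Myocd, Des and Kcnmb1 were below it on all 7 arrays. Its mean log2 signal was 6.24 to 6.71 on knockout arrays, 5.78 to 6.01 on knockdown arrays and 5.95 to 6.31 on wild-type arrays. By limma, 0 of 8 tested genes passed in any comparison. In knockout against knockdown, 7 of the 8 were higher and 1 lower (median 0.36). Cnn1 and Lmod1 were the 2 at an unadjusted p under 0.05 there. The differences were largest for Cnn1 (2.56) and Actg2 (2.15), which weigh on the list means. Myh11, the smooth muscle myosin heavy chain gene, was at 6.72 on knockout array 1 and at 5.52 to 5.65 on the other 6 arrays. Lmod1 was higher in knockout than in knockdown by 0.59 (adjusted p = 0.249).

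Pericyte markers averaged 6.42 to 6.90 on knockout arrays, 6.41 to 6.51 on knockdown arrays and 6.40 to 6.59 on wild-type arrays, with 4 of 7 above the array median and Rgs5, Abcc9 and Kcnj8 below it throughout. In knockout against knockdown, 2 of the 7 were higher and 5 lower (median -0.0685, 0 called). Mcam, 1 of the 2, had 8.93 and 7.43 on knockout arrays, 6.58 and 6.57 on knockdown arrays, and 6.91, 7.83 and 7.13 on wild-type arrays, so knockout array 1 stood above all others and knockout array 2 inside the wild-type range. Striated muscle markers averaged 5.115 to 5.41, 5.22 to 5.25 and 5.17 to 5.34 on knockout, knockdown and wild-type arrays, and 4 to 5 of 13 lay above the array median. Tnnt2, Ckm and Tnnc1 were above it on all 7 arrays, with Tnnt2 at 8.46 on knockout array 1, while Myf5, Myog, Actn2 and Myh6 were below it throughout. In knockout against knockdown, 4 of the 12 tested striated genes were higher and 8 lower (median -0.0854, 0 called). Fibroblast markers averaged 10.03 to 10.19 on knockout arrays, 10.40 to 10.64 on knockdown arrays and 9.75 to 10.54 on wild-type arrays, with the lowest value on wild-type array 1. Between knockout and knockdown, 5 of the 12 fibroblast markers were higher in knockout and 7 lower (median -0.249, 0 called). Pdgfra stood at -1.36 (adjusted p = 0.143 by limma) and S100a4 at 0.61 (adjusted p = 0.173). The part of all these marker lists in the results on contractile genes was not tested. In RNA from whole cultures, fewer cells of a type and less RNA per cell cannot be told apart.

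The genes whose pattern over the 7 arrays was most like that of Acta2, by the root mean square difference of log2 signals centred on each gene's mean, were Slc3a2 (0.0979), Lims2 (0.105), Cav1 (0.106), Sidt2 (0.111) and Col4a5 (0.116). Among the members Vcl came nearest to Acta2, at 0.133, and Tagln next, at 0.196. For Tpm2 the nearest were Ammecr1 (0.177), Pawr (0.182), Rnf19b (0.223), Ppme1 (0.24) and Micu3 (0.242). Ammecr1 stood at 8.53 and 8.26 on knockout arrays, 6.36 and 6.97 on knockdown arrays and 7.60, 7.74 and 7.51 on wild-type arrays. The nearest member to Tpm2 was Tagln, at 0.368, followed by Vcl at 0.37.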

How the data were processed

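RNA of 7 fibroblast clones was measured on Affymetrix whole-transcript arrays. The authors deposited log2 signals, 1 column per array, and per the submitters' processing notes used the affy package in R 2.8.0. How they corrected background, normalized and summarised is not stated in the labels, and the scale was inferred from the range of values. Some genes held an identical value on several arrays. Myh11, for example, was at 5.6504 on knockout array 2, both knockdown arrays and wild-type arrays 2 and 3. How such ties affect the spread and the SE was not tested. Of 34760 probe sets, 21640 carry 1 gene symbol (19937 genes). Where a gene had several (954 genes), the probe set with the highest mean was used. Testing required a signal above the array's own 25th percentile (3.98 to 4.05) on 2 arrays or more, which kept 16801 genes. Group means were fitted over the 7 arrays by limma (version 3.58.1, R version 4.3.3; lmFit, then eBayes; two-sided tests), with 4 residual and 2.06 prior degrees of freedom, and Benjamini-Hochberg adjustment ran over all tested genes in each comparison, at a threshold of 0.05. The procedure was also run on simulated data with independent normal errors and changes placed in knockout only. That simulation did not mimic identical values or unequal spread between groups. The number of arrays limits the precision.

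The members, lists, tests and alternatives were chosen with earlier results of these data known. Named are all members, up to 3 genes of smallest p per related list and comparison, and the 5 genes most like Acta2 and Tpm2. Further genes, such as Actg2 in knockout, Myh11, Myocd and the markers cited by level, were chosen after their values were seen. The lists cover other actins, tropomyosins, calponins and transgelins, myosin II and its control, focal adhesion and crosslinker genes, SRF and TEAD regulators, SRF targets, and smooth muscle, pericyte, striated muscle, fibroblast, and epithelial, endothelial and leukocyte markers. Promoter sequences are RefSeq's (GRCm38.p6). The alternatives were no filter, a stricter filter (array median), quantile normalization, median centring, array weights, a replicate block, only the 2 groups compared, the mean of probe sets, each array left out, and both deficient arrays numbered 2 left out. The replicate block was fitted without wild-type array 3.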

Additional observations from a re-analysis of the deposited data

Results flagged for a closer look

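For 7 members both knockout arrays lay above the wild-type mean and both knockdown arrays below it, on opposite sides of that mean. The share of all tested genes with this pattern was not computed. Knockdown minus wild type was only -0.055 for Acta2 and -0.081 for Vcl. Without wild-type array 2 these differences were 0.081 and 0.062. The knockout minus knockdown difference, which was itself tested with limma, was 0.47 for Acta2 (adjusted p = 0.306), 0.81 for Tagln (0.291), 2.56 for Cnn1 (0.176), 0.30 for Tpm1 (0.197), 1.53 for Tpm2 (0.0488), 1.27 for Myl9 (0.334) and 0.77 for Vcl (0.143). Only Tpm2 passed. In Acta2, Tagln, Myl9 and Vcl both knockdown arrays stood inside the wild-type range, above array 1 and below arrays 2 and 3. The members were chosen with this opposition known.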

How the results depend on the processing

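Results were recomputed under 16 alternatives. Knockout against wild type (28 genes) gave 79 with the stricter filter, 45 with quantile normalization, 71 with centring, 6 with only the 2 groups compared and 1 without both deficient arrays numbered 2, and 3 to 71 with 1 array left out. Knockout against knockdown (63 genes) gave 38 with no filter, 111 with the stricter filter, 100 with quantile normalization, 137 with centring, 18 with array weights, 0 with only the 2 groups compared (2215 at an unadjusted p under 0.05) and 1 without both arrays numbered 2, and 0 to 103 with 1 array left out. Knockdown against wild type (3 genes) gave 0 with only the 2 groups compared, without both arrays numbered 2, and with any 1 array left out (1617 to 2606 at an unadjusted p under 0.05). The replicate block, which pairs arrays by number, used only arrays numbered 1 and 2 and so left out wild-type array 3. It gave 2 genes in knockout against wild type, 2 in knockout against knockdown and 0 in knockdown against wild type. It also ended the Tpm2 call (adjusted p = 0.168). Leaving out wild-type array 3 without pairing gave 3, 7 and 0 genes and ended that call too, so the block's counts do not isolate the pairing. Deviations from the group mean correlated by -0.074 to 0.199 between arrays of the same number. In a group of 2 arrays these deviations mirror each other, so this check cannot settle whether the numbers pair the clones.

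Over the members, the count higher in knockdown than in wild type (1 of 10) was 0 with array weights and without both arrays numbered 2, and 0 to 4 with 1 array left out. The median difference in knockout minus wild type (0.44) was 0.19 to 0.61 with 1 array left out, lowest without wild-type array 1. Signs changed under some alternative for Mylk, Cnn2, Acta2, Myl9 and Vcl, and for no other member. For Mylk the knockout minus wild type difference was -0.17 with array weights, -0.075 with the replicate block and -0.25 to 0.32 with 1 array left out. Its knockdown minus wild type difference was -0.037 with array weights, -0.22 without both arrays numbered 2 and -0.22 to 0.55 with 1 array left out. Its knockout minus knockdown difference was 0.54 without both arrays numbered 2 and -0.51 to 0.25 with 1 array left out. For Cnn2 knockout minus wild type was 0.035 without both arrays numbered 2 and -0.14 to 0.035 with 1 array left out. With 1 array left out, knockdown minus wild type ranged from -0.24 to 0.081 for Acta2, -0.97 to 0.004 for Myl9 and -0.24 to 0.062 for Vcl. The Tpm2 call between knockout and knockdown held with centring, the mean of probe sets, quantile normalization and the stricter filter, and ended under the other 12 alternatives. The causes were not tested.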
